A study of Bos taurus with 6 samples.

Results

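The genes described here are 10 transcription factors of the T lymphocyte lineage, SOX13, SOX4, ID3, TCF7, LEF1, GATA3, BCL11B, ETS1, TBX21 and ID2. Their probes were taken by name, as every probe other than controls whose gene name, or the symbol in brackets in its description, was one of the 10. This gave 15 probes of 9 genes out of 43653 probes and 15531 named genes on the array, all of them kept by the filter on dim probes, and no probe named BCL11B. Jugular blood of 6 cows was hybridised whole, 3 of them transgenic for fat-1 and 3 wild type, each on an array of its own. Fat-1 comes from Caenorhabditis elegans, a nematode, and its product turns omega-6 into omega-3 fatty acids. The promoter of the transgene and the number of founder lines are not given in the sources used here. By the labels, fat-1 replicate 1 was aged 3.5 years, and all others in both groups 3 years.

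T cells arise in the thymus, where Notch signals switch on TCF7, an HMG-box factor that opens the chromatin of T cell genes, followed by GATA3 and BCL11B, which close off other fates. LEF1, a close relative of TCF7, ETS1, a factor bound at many T cell enhancers, and the first 3 are shared by T cells with either kind of receptor. SOX13 and SOX4, also HMG-box proteins, and ID3, an inhibitor of the E proteins, are known for their part in the gamma-delta lineage, whose cells are abundant in the blood of cattle and often carry the scavenger receptor WC1. TBX21, the T-box factor T-bet, and ID2, a second inhibitor of E proteins, serve effector T cells and natural killer (NK) cells, and ID2 is also expressed in myeloid cells.

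Each gene was read by 60-base probes with a GC content of 20.0% to 55.0%, and a probe sees only its own stretch of the transcript. The opening 30 bases of the probes on which the results turn are given 5′ to 3′, as the array files hold them, to show which stretch was read. The 2 TCF7 probes read separate stretches of 1 transcript, and of the 3 ID2 probes 2 share a position but differ at 3 bases (G19A, A22T and T58G, counted from 1 at the 5′ end, with the base of probe A_73_P043171 first), so they read the same site. Capitals mark the differing bases.
SOX13 (A_73_P071481): acaaaggtctggctgtccttgccgtcttta
ID3 (A_73_102001): atgcgatgtatattaaactttttataaaag
SOX4 (A_73_P034946): atgatctcgggagactggctggagtccagc
TCF7 (A_73_112667): tcaggccctggagatttcagagtctgcaca
TCF7 (A_73_117109): tcagaatccaaagatcgtatgttctagtgt
ID2 (A_73_P043171): aatgaagtcttttggtcaGaaAttaccttt
ID2 (A_73_P154442): aatgaagtcttttggtcaAaaTttaccttt

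On the build Btau_3.1 of the array files, the SOX13 probe lies on chromosome 16 at 909341 to 909400, ID3 on chromosome 2 at 133740254 to 133740313 and SOX4 on chromosome 23 at 36889950 to 36890009. The TCF7 probes lie on chromosome 7 at 44982664 to 44982723 and at 44983767 to 44983826, with 1043 bases between them. The LEF1 probes lie on chromosome 6 at 18600789 to 18600848 and at 18600938 to 18600997, and the ETS1 probe on chromosome 29 at 33474303 to 33474362. The GATA3 probes lie on chromosome 13 at 14680788 to 14680847 and at 14699023 to 14699082, near opposite ends of the transcript (positions 1925 and 102). The TBX21 probes lie on chromosome 19 at 39958770 to 39958829 and at 39958827 to 39958886 and share 3 bases. The shared ID2 position is on chromosome 11 at 91375859 to 91375918, and the third ID2 probe has no position in the files. Which of these sites are exonic or untranslated was not analysed here, for want of gene models on that build.

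Signal was similar across arrays. The 75th percentile of processed intensity lay between 613 and 1067, 58.4% to 63.4% of probes were well above background on an array, and arrays correlated at 0.955 to 0.984 over the probes kept. Levels below are log2 of the processed intensity relative to that percentile of the same array, so they compare animals at 1 probe and not 1 probe with another. A difference is the fat-1 mean less the wild type mean on this log2 scale, with its standard error (SE) from limma, and an adjusted p under 0.05 over all 26823 probes kept counted as a call. Fat-1 arrays shared a slide and wild type arrays shared another, and the effects of slide and group therefore cannot be told apart. Blood is a mixture, in which fewer cells of a type and less RNA per cell cannot be told apart.

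None of the T lineage factors reached the threshold between fat-1 and wild type blood. All 15 probes had a difference below 0, where 55.3% of all probes had one, but the 3 ID2 probes, at -0.06, -0.05 and -0.03, turned positive in several alternatives, among them quantile scaling. At an adjusted p under 0.05 the count was 0 of 15, against a background of 0.171% of all probes. Unadjusted, 6 of 15 were lower at p under 0.05 in limma and 0 higher, where 6.66% of all probes were lower and 6.17% higher. The 6 were the probes of SOX13, ID3 and ETS1, both probes of TCF7 and 1 of 2 for LEF1. At the same 6 probes every fat-1 animal lay below every wild type animal, as at 12.7% of all probes. The reverse order held at 0 of 15 and at 6.95% of all probes, and the groups were apart in either direction at 19.6%. Probes of 1 gene share a transcript, so the 15 are not 15 separate readings. The 6 became 3 without fat-1 replicate 1, the older animal, namely SOX13, ID3 and 1 TCF7 probe, and 2 when arrays were scaled to the T cell genes CD3D, CD3E and CD3G, namely SOX13 and ID3. Without fat-1 replicate 1, 5.66% of all probes were lower at that p. The CD3 scaling adds 0.33 to the difference of every probe, and the share of all probes lower at that p was then 1.70%.

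**Figure D1:**
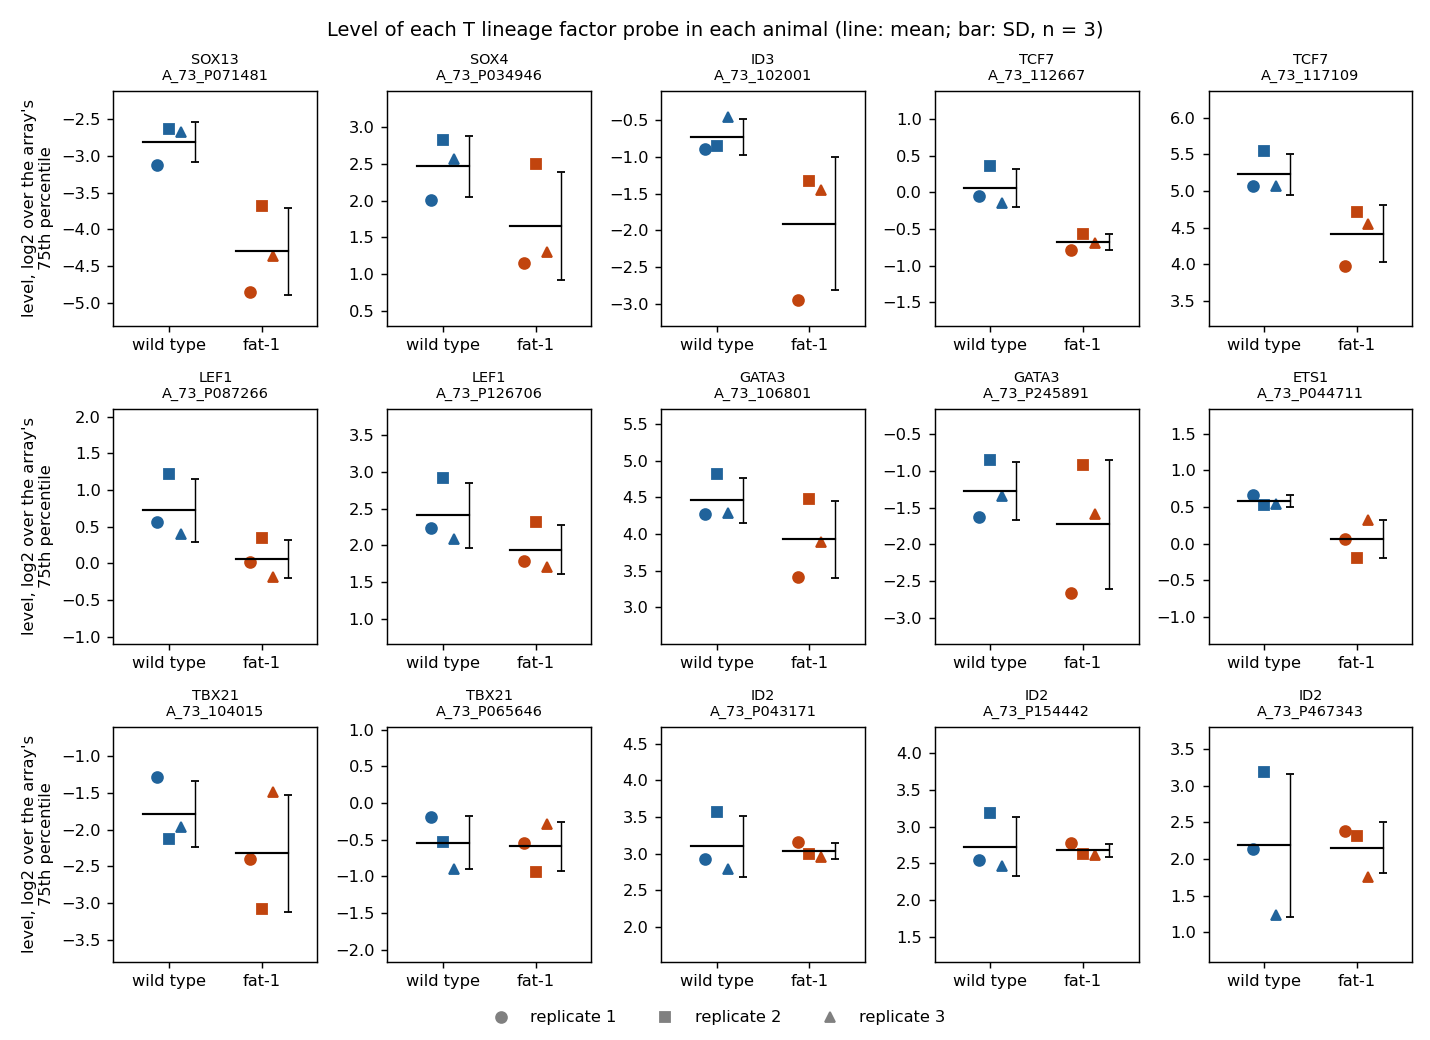
Level of each of the 15 probes in each animal, as log2 of processed intensity over the 75th percentile of the array (y axis, the same span in each panel), with wild type in blue and fat-1 in orange, symbols for the replicates, a line at the mean and a bar of 1 SD (n = 3). In the SOX13 panel the fat-1 animals lie at -4.86 to -3.69 and the wild type animals at -3.12 to -2.63, whereas in the TBX21 and ID2 panels the groups overlap.

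SOX13, an HMG-box factor of gamma-delta T cells, had the lowest difference of the members. Its level was -4.86, -3.69 and -4.36 in fat-1 replicates 1 to 3 and -3.12, -2.63 and -2.67 in the wild type replicates. The groups did not overlap and were 0.56 apart at their nearest animals. SOX13 was dim, and on the array of fat-1 replicate 1 it was not well above background. Its difference was -1.49 ± 0.32 (SE), or 2.82-fold lower, with a 95% interval of -2.23 to -0.76, an unadjusted p of 0.0014 in limma and an adjusted p of 0.145 in limma. That p placed SOX13 at rank 260 among all probes kept. Without fat-1 replicate 1 the difference was -1.22, and with normexp background correction it was -1.06. The adjusted p in limma lay between 0.0449 and 0.379 over the alternatives tried, and the lowest came from a fit with array weights, the only one in which it was under 0.05.

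ID3, which binds E proteins and keeps them off DNA, followed. Fat-1 replicates 1 to 3 had levels of -2.95, -1.33 and -1.45 and the wild type replicates levels of -0.90, -0.85 and -0.45. All fat-1 animals were lower, and fat-1 replicate 1 stood far below the other two. The difference was -1.18 ± 0.42 (SE) with a 95% interval of -2.13 to -0.22 (unadjusted p = 0.0215 and adjusted p = 0.348 in limma). Without fat-1 replicate 1 it was -0.66, a move of more than 1.5 times, with an unadjusted p of 0.0380 in limma. Without wild type replicate 3 that p was 0.0671.

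SOX4, which cooperates with SOX13 in gamma-delta cells and is also found in B cell precursors, overlapped between the groups. Its levels were 1.15, 2.50 and 1.31 in fat-1 replicates 1 to 3 and 2.02, 2.82 and 2.57 in wild type replicates. Fat-1 replicate 2 was within the wild type range and the other fat-1 animals were below it. The difference was -0.82 ± 0.39 (SE), with a 95% interval of -1.70 to 0.07 (unadjusted p = 0.0656 and adjusted p = 0.407 in limma), and it was -1.24 without fat-1 replicate 2 and -0.33 with array weights.

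Among the factors shared by T cells, TCF7 was lower at both of its probes. At probe A_73_117109, the brighter one, levels were 3.98, 4.71 and 4.55 in fat-1 replicates 1 to 3 and 5.06, 5.55 and 5.06 in wild type replicates. At the other, they were -0.78, -0.57 and -0.69 against -0.04, 0.35 and -0.14. The groups were apart at both probes, and at the second the fat-1 animals lay close together, with an SD of 0.11. The differences were -0.81 ± 0.27 (SE) and -0.74 ± 0.22 (unadjusted p = 0.0155 and 0.00935, adjusted p = 0.321 and 0.282 in limma). The 95% intervals ran from -1.42 to -0.20 and from -1.24 to -0.23. With array weights the second had an adjusted p of 0.0458 in limma, and over the alternatives tried it ranged up to 0.551.

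LEF1 gave 2 like readings 89 bases apart. Probe A_73_P087266 read 0.02, 0.34 and -0.18 in fat-1 replicates 1 to 3 and 0.56, 1.21 and 0.40 in wild type replicates. Probe A_73_P126706 read 1.79, 2.32 and 1.71 against 2.23, 2.91 and 2.09. The groups were apart by 0.06 at the first and overlapped at the second, where fat-1 replicate 2 was above wild type replicates 1 and 3. The differences were -0.67 ± 0.28 (SE) and -0.47 ± 0.29 (unadjusted p = 0.0406 and 0.141, adjusted p = 0.380 and 0.468 in limma).

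ETS1, the founding member of the ETS family and a regulator of T and NK cell genes, was nearly level among wild type animals. It stood at 0.67, 0.52 and 0.54 there and at 0.06, -0.19 and 0.32 in fat-1 replicates 1 to 3. No fat-1 animal reached the wild type range. The difference was -0.51 ± 0.22 (SE), 1.43-fold lower (unadjusted p = 0.0440 and adjusted p = 0.384 in limma).

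GATA3, a zinc finger factor of T cell commitment and of type 2 helper cells, overlapped at both probes. Near the 3′ end of its transcript the levels were 3.42, 4.47 and 3.88 in fat-1 replicates 1 to 3 and 4.27, 4.81 and 4.29 in wild type replicates. Near the 5′ end they were -2.66, -0.92 and -1.59 against -1.63, -0.85 and -1.34. Fat-1 replicate 1 was the lowest animal at both. The differences were -0.53 ± 0.31 (SE) and -0.45 ± 0.43 (unadjusted p = 0.120 and 0.317 in limma), and without fat-1 replicate 1 they were -0.28 and 0.01.

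BCL11B, which holds T cells to their fate, was reached outside the rule by 2 probes of 1 transcript. They were tied to it by the RefSeq table or by their description, and were named after their values were seen. Probe A_73_P069541 had levels of -0.98, -0.57 and -1.92 in fat-1 replicates 1 to 3 and -1.24, -0.49 and -1.34 in wild type replicates. The groups overlapped, with a difference of -0.14 ± 0.38 (SE, unadjusted p = 0.731 in limma). The second probe was well above background on 1 array only, that of wild type replicate 3, and was not tested.

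The effector and innate factors overlapped between the groups at all 5 probes. ID2 had levels of 3.15, 3.00 and 2.95 in fat-1 replicates 1 to 3 and 2.93, 3.57 and 2.79 in wild type replicates at probe A_73_P043171. Wild type replicate 2 was the highest animal at each of the 3 ID2 probes. The differences were -0.06 ± 0.25 (SE), -0.05 ± 0.25 and -0.03 ± 0.45, and the 95% interval of the first ran from -0.65 to 0.52. All 3 ID2 differences turned positive with array weights, in the deposited value table, under quantile scaling and with wild type replicate 2 left out. The value table nearly repeats quantile scaling, so it is not a separate check. All 3 ID2 differences were also positive under CD3 scaling, where the added 0.33 alone exceeds them.

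TBX21, read by neighbouring probes, overlapped between the groups at both. At probe A_73_104015 levels were -2.41, -3.08 and -1.49 in fat-1 replicates 1 to 3 and -1.28, -2.13 and -1.96 in wild type replicates. At probe A_73_P065646 they were -0.55, -0.94 and -0.28 against -0.19, -0.53 and -0.90. Fat-1 replicate 2 was the lowest animal at both. The differences were -0.53 ± 0.41 (SE) and -0.05 ± 0.27 (unadjusted p = 0.230 and 0.853 in limma), and the second turned positive on the CD3 scale and with either fat-1 replicate 2 or wild type replicate 1 left out. The first moved by more than 1.5 times in either direction. It was -0.95 when fat-1 replicate 3 was dropped and -1.04 with array weights (unadjusted p = 0.0286 and 0.0176 in limma). Dropping fat-1 replicate 2 gave -0.16 and dropping the first wild type animal -0.28.

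**Figure D2:**
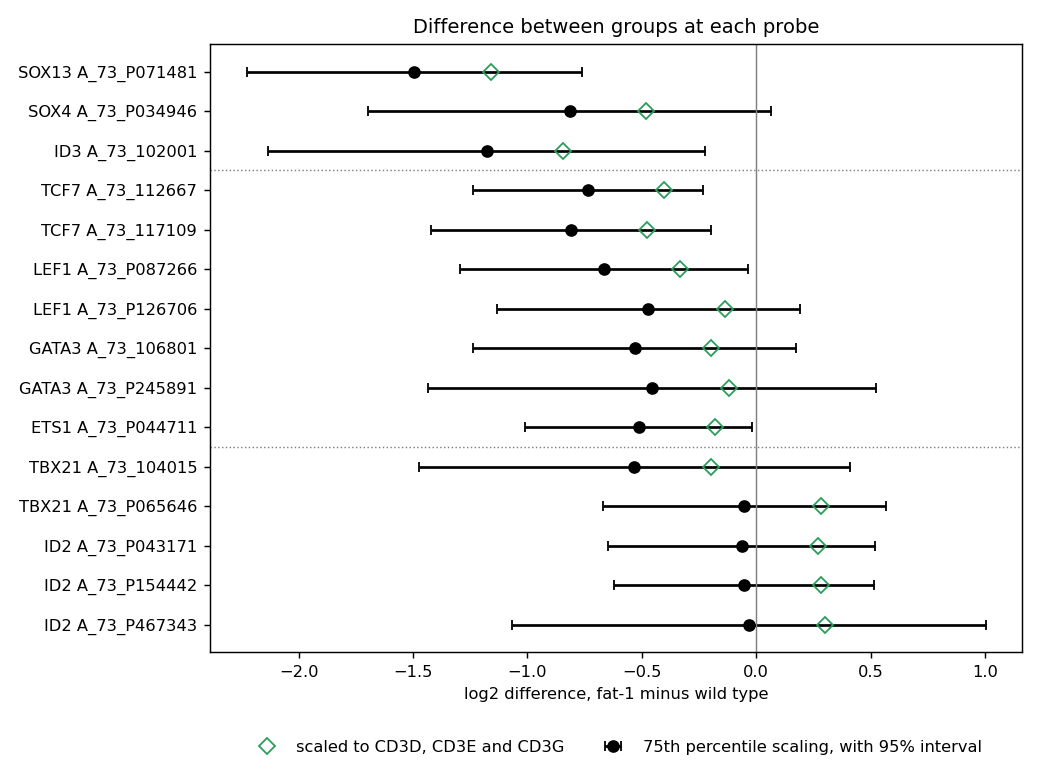
Log2 difference, fat-1 minus wild type, at each of the 15 probes (black points with 95% intervals of the limma fit), with dotted lines between the factors of gamma-delta cells (top), those shared by T cells (middle) and the effector and innate factors (bottom), and open green diamonds for arrays scaled to CD3D, CD3E and CD3G. SOX13 is lowest at -1.49 and is -1.16 when scaled to the CD3 genes, and the 5 probes of TBX21 and ID2 have intervals that span 0.

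The factors of gamma-delta cells were set beside those shared by T cells. The median difference was -1.18 over the 3 probes of SOX13, SOX4 and ID3, -0.53 over the 7 probes of TCF7, LEF1, GATA3 and ETS1, and -0.05 over the 5 probes of TBX21 and ID2, against -0.06 over all probes kept. With GATA3 counted among the gamma-delta factors the first 2 medians were -0.82 and -0.67, so the distance between the sets depends on where that gene is put. Without fat-1 replicate 1 the medians of the sets as first drawn were -0.66 and -0.51. The first of these is the value of ID3 alone, while SOX13 was then at -1.22 and SOX4 at -0.57. How far the distance depends on that animal therefore differs by gene. The mean level of SOX13, SOX4 and ID3, relative to all 6 animals, was -1.28, 0.10 and -0.56 in fat-1 replicates 1 to 3 and 0.27, 0.72 and 0.75 in wild type replicates. That of TCF7, LEF1, GATA3 and ETS1 was -0.57, -0.05 and -0.26 against 0.17, 0.58 and 0.13. In both sets fat-1 replicate 1 was lowest and fat-1 replicate 2 nearest to wild type, and the difference between the sets was not tested.

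Genes that mark T cells were set beside these results. The mean level of CD3D, CD3E and CD3G, the invariant chains of the receptor complex, was -0.44, -0.02 and -0.04 in fat-1 replicates 1 to 3 and 0.03, 0.34 and 0.14 in wild type replicates, with a difference of -0.33. By gene it was -0.38 ± 0.28 (SE) for CD3D, -0.60 ± 0.26 for CD3E and -0.02 ± 0.25 for CD3G (unadjusted p = 0.209, 0.0504 and 0.930 in limma). Of 20 measured genes of all or alpha-beta T cells 15 had a difference below 0, where 55.3% of all probes had one. In limma 1 was lower at an unadjusted p under 0.05, where 6.66% of all probes were, and 0 passed over all probes. The list had a median of -0.14, against -0.06 over all probes. Without fat-1 replicate 1 the median of the list was 0.06. CD8A, TRAT1 and CD28 had the highest differences of the list, at 0.73, 0.69 and 0.45, among 5 genes above 0. ZAP70, LCK, LAT and CD4 were among the 15 below 0, at -0.56, -0.54, -0.53 and -0.44. These genes were named after their values were seen. The gene with an unadjusted p under 0.05 in limma was CD247, the zeta chain of the complex, at -0.85 ± 0.29 (SE). It had the brightest probe of the list, with mean levels of 6.19 in fat-1 and 7.05 in wild type animals. In units of the 75th percentile, the summed level of the list was 197 to 302 in fat-1 and 324 to 486 in wild type animals, without overlap. Of all single probes, 12.7% had every fat-1 animal below every wild type animal. That sum weighs bright genes most, so much of it is CD247, and the order of the groups was not tested without that gene. The part of T cell content in the lower factor levels was not tested. Scaled to the CD3 genes, SOX13 had -1.16 and ID3 -0.84 (unadjusted p = 0.00281 and 0.0441 in limma), where the median of all probes was 0.28. On that scale SOX4, the third factor of gamma-delta cells, had -0.48, the TCF7 probes -0.48 and -0.40 and ETS1 -0.18. The LEF1 probes had -0.33 and -0.14 and the GATA3 probes -0.20 and -0.12. None of these had an unadjusted p under 0.05 in limma.

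Surface genes of gamma-delta T cells had lower differences than these. WC1.3, CD163L1 and the receptor constant gene TRGC6 were the 3 measured of 17 names looked for. All had an unadjusted p under 0.05 and none an adjusted one in limma, where 6.66% of all probes were lower at the unadjusted p. Their differences were -1.52 ± 0.41 (SE), -1.45 ± 0.51 and -1.45 ± 0.42. Without fat-1 replicate 1 they were -1.02, -0.84 and -0.92, and their mean moved from -1.47 to -0.93. A second TRGC6 probe that was kept had a difference of 0.26, opposite in sign to the brighter one given here. Their mean level was -1.82, -0.14 and -0.24 in fat-1 replicates 1 to 3 and 0.68, 1.06 and 0.46 in wild type replicates, relative to all animals. Their summed level was 6.60 to 26.4 in fat-1 and 32.4 to 59.7 in wild type animals. Fat-1 replicate 1 was lowest and the groups did not overlap in either measure. Of all single probes, 12.7% had every fat-1 animal below every wild type animal.

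**Figure D3:**
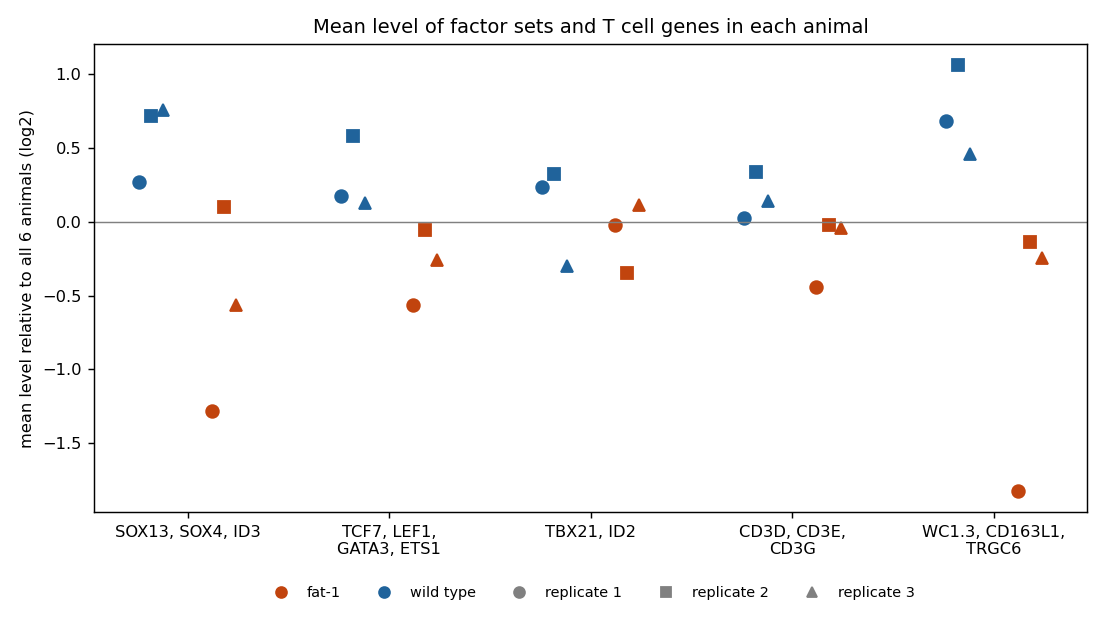
Mean level of 3 sets of factors, of the CD3 genes and of 3 surface genes of gamma-delta T cells in each animal, on the log2 scale relative to the mean of all 6 animals, with wild type in blue, fat-1 in orange and symbols for the replicates. Fat-1 replicate 1 is lowest in the sets of SOX13, SOX4 and ID3 (-1.28), of TCF7, LEF1, GATA3 and ETS1 (-0.57), of the CD3 genes (-0.44) and of the surface genes (-1.82), and the groups overlap for TBX21 and ID2.

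Proteins that work with these factors were measured too. The list of partners of the ID and TCF proteins also held ID1, itself an ID gene, and ZFPM1, a cofactor of GATA proteins. Of its 12 measured genes 8 had a difference below 0, where 55.3% of all probes had one. In limma 3 had an unadjusted p under 0.05, all lower, where 6.66% of all probes were lower, and 0 passed over all probes. The median was -0.26, and -0.13 with the mean of all kept probes of a gene. TLE2, a Groucho co-repressor that TCF proteins recruit, had -1.42 ± 0.38 (SE), ZFPM1, the FOG cofactor of GATA proteins, -0.81 ± 0.24 and AES, a short Groucho relative, -0.71 ± 0.23. The E proteins, the targets of ID2 and ID3, had -0.36 for TCF3, 0.31 for TCF4 and 0.50 for TCF12, named after their values were seen, and the effector of Wnt signalling CTNNB1 had -0.03.

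Other transcription factors of T cells stood near the rest of the array. Of 35 measured, 22 had a difference below 0, where 55.3% of all probes had one, with a median of -0.06, which is that of all probes. By limma 2 were lower at an unadjusted p under 0.05, where 6.66% of all probes were, 0 were higher and 0 passed over all probes. These were HES1, a target of Notch, at -0.63 ± 0.26 (SE) and MAF, a factor of helper and gamma-delta T cells, at -0.61 ± 0.24.

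Markers of other blood cells were counted in the same way. Of all probes, 55.3% had a difference below 0, and 6.66% were lower and 6.17% higher at an unadjusted p under 0.05 in limma. NK cell markers had a median of -0.02 over 11 genes, with KLRB1 at -1.35 ± 0.24 (SE) and NCR1 at -0.81 ± 0.31 lower and KLRK1 at 0.91 ± 0.29 and the granzyme gene GZMA higher, all at an unadjusted p under 0.05 in limma. B cell markers had a median of -0.15 over 10 genes, with the kinase BLK at -0.85 ± 0.31 and the complement receptor CR2 at least 1.18-fold higher, since it was not well above background in wild type animals. Monocyte markers had a median of 0.03 over 13 genes, with CEBPB at -0.80 ± 0.26 and CX3CR1 at 0.69 ± 0.24, and neutrophil markers 0.17 over 9, of which 7 were above 0, with FCGR3A at 0.83 ± 0.21. Platelet markers had a median of 0.50, with 5 of 5 above 0 and PPBP at 0.50 ± 0.21. Red cell markers had a median of 0.95 over 8, of which 3 were below 0. Among these the anion exchanger SLC4A1, not well above background in fat-1 animals, was at least 1.46-fold lower. The summed level of red cell markers was 557 to 1066 in fat-1 animals and 120 to 1278 in wild type animals, where the highest was replicate 2. Without that animal the red cell median was 1.73 and the haemoglobin gene HBA, named after its values were seen, moved from 1.73 to 2.96. The red cell median fell to 0.40 without wild type replicate 1 and to 0.45 without wild type replicate 3. The summed level of NK cell markers was 134 to 181 in fat-1 and 126 to 218 in wild type animals. Of these lists 0 genes passed over all probes in limma. Of 10 genes of liver, milk and muscle looked for as tissues other than blood, 4 were kept, none with an unadjusted p under 0.05 in limma, all below 0 and with a median of -0.37.

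The genes whose pattern over the 6 animals was most like that of SOX13, by the root mean square of the differences between centred log2 levels, were CXCL12 (0.08), COL18A1 (0.15), KCNIP3 (0.15), NAALADL1 (0.16) and NXN (0.21). A probe of WC1.3 was at rank 16 of the 26822 other probes, and the next probes of CD163L1 and WC1.3 were at ranks 61 and 70. Not all such probes were near, as another WC1.3 probe was at rank 6847 and the TRGC6 probes at ranks 407 and 21910. For the brighter TCF7 probe the nearest was CD247 (0.03), followed by JUN (0.05), TMEM171 (0.06), MARCKSL1 (0.08) and CDC42BPG (0.09). The nearest probe of CD163L1 was at rank 2743, of WC1.3 at rank 8932 and of TRGC6 at rank 11462. These ranks rest on 6 arrays and reflect the size of a difference as well as its shape.

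**Figure D4:**
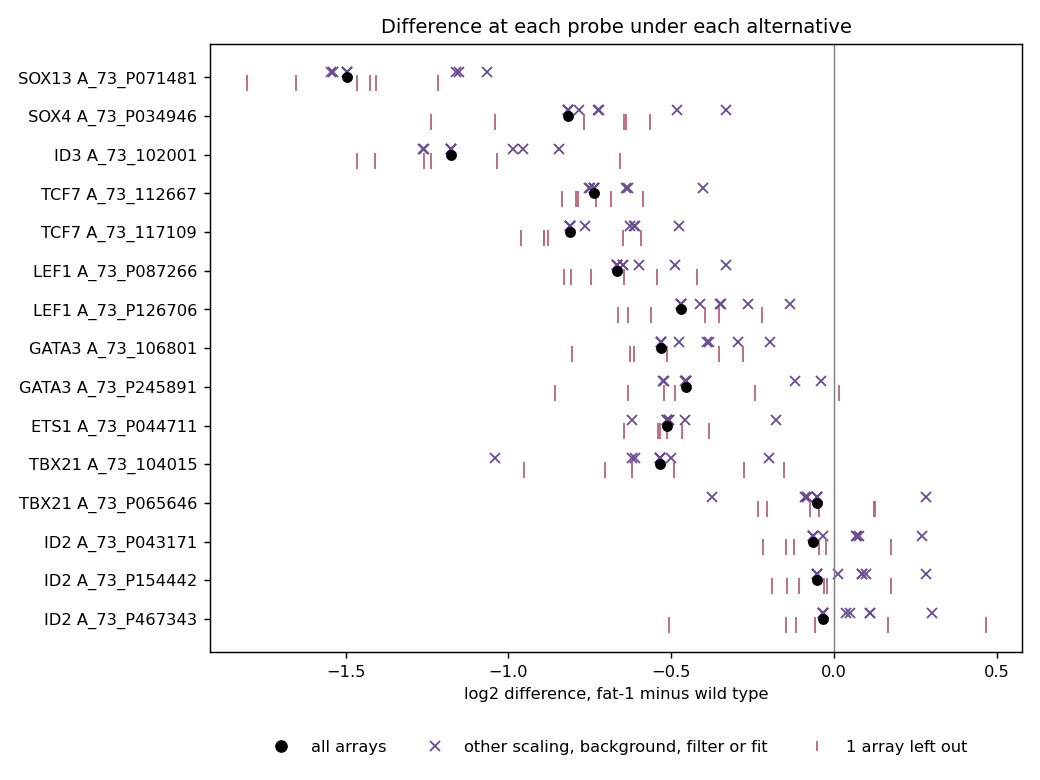
Log2 difference, fat-1 minus wild type, at each of the 15 probes with all arrays (black points), under another scaling, background correction, filter or fit (purple crosses) and with 1 array left out (pink bars). SOX13 stays between -1.80 and -1.06 and ID3 between -1.47 and -0.66, while the ID2 probes fall on both sides of 0.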

How the data were processed

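The authors deposited the spot intensity that Agilent Feature Extraction 10.7.1.1 wrote, and per the file headers spatial detrending and surrogates for dim spots were switched on. Flags of 0 or 1 per spot were used as deposited. The second deposited source, a value table, was read as log2, with a median of 6.38 in every column. Its columns correlated with their own array at 0.9997 or above, which is the basis of that reading; no label states the scale.

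Processed intensity was taken to log2, reduced by the 75th percentile of each array, and averaged over spots without an outlier flag, which left out 32 probes. A filter then kept those that rose well above background on 3 or more of 6 arrays. The groups were compared with limma 3.58.1 in R 4.3.3 over all probes kept, with Benjamini-Hochberg adjustment, and the fit was tested on simulated data. Precision is limited by having 3 animals a group. The members and gene lists were chosen with earlier results of these data known. Lists took 1 probe per gene, the brightest, and up to 4 members at an unadjusted p under 0.05 were named. Names came from the files and a RefSeq table of ARS-UCD2.0, which matched 22205 probes by accession, 9853 by symbol and 412 by an older symbol.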

Additional observations from a re-analysis of the deposited data

How the results depend on the processing

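No member probe passed the threshold in any alternative except with array weights, where 2 did (SOX13 and 1 TCF7 probe) among 1971 of all 26823 probes. The count of lower members at an unadjusted p under 0.05 in limma was 2 when scaled to the CD3 genes and 3 to 7 with 1 array left out. Of all probes, 1.70% and 4.31% to 10.4% were lower at that p in these fits. For all probes the 46 calls became 16 under quantile scaling, 16 for the deposited value table, 116 with normexp, 121 with an intensity trend, 14 without the filter on dim probes, and 8 to 55 with 1 array left out, the fewest without fat-1 replicates 1, 2 and 3 (8, 12 and 13). The value table and quantile scaling gave near-equal differences, such as -1.54 for SOX13 in both, and are not separate checks. Scaled to the CD3 genes, 30 probes were called higher and 14 lower, and with normexp 35 and 81, against 21 and 25. With the replicate number as a block the calls were 104. Same-numbered animals correlated at 0.12, 0.19 and 0.01 in their deviations from the group means, and other pairs at -0.21 to 0.08. With 3 animals a group, these values cannot show whether the numbers pair the animals. The block gave 6 lower member probes, with SOX4 in (unadjusted p = 0.0145 in limma) and ETS1 out (unadjusted p = 0.0611 in limma). The slide could not be fitted.

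Differences that turned positive were, for ID2 probes A_73_P043171, A_73_P154442 and A_73_P467343, 0.069, 0.086 and 0.11 with quantile scaling, 0.27, 0.28 and 0.30 scaled to CD3, 0.068, 0.084 and 0.11 in the value table, 0.076, 0.097 and 0.048 with array weights, and, with 1 array left out, ranges of -0.22 to 0.17, -0.19 to 0.17 and -0.51 to 0.46. The last 2 also had 0.013 and 0.035 with normexp. TBX21 A_73_P065646 had 0.28 scaled to CD3 and -0.23 to 0.12 with 1 array left out, and the GATA3 5′ probe -0.86 to 0.015. The cause was not tested. SOX13 could not be fitted among probes well above background on all 6 arrays.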
